A study of Mus musculus with 12 samples.

Results

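Metallothioneins are small, cysteine-rich proteins that hold zinc and copper in the cell and take up reactive oxygen species. Mt1 and Mt2 are made in most tissues and, in the brain, mainly by astrocytes and related glia. Mt3 is the brain-enriched member, first known as a growth inhibitory factor of neurons. Mtf1 codes for the zinc-sensing transcription factor that binds metal response elements in metallothionein promoters when free zinc rises, and glucocorticoids are a further known inducer of Mt1 and Mt2.

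The 4 genes Mt1, Mt2, Mt3 and Mtf1 were chosen by name from the 17365 genes of the count table, and all 4 were among the 13312 genes that passed the filter on low counts. They were followed in bulk RNA-seq of mouse adult neural stem cells (NSCs) taken from the subventricular zone of wild-type mice aged 6 to 8 weeks and grown on laminin in serum-free medium with N2 and B27 supplements. EGF/FGF cultures received EGF and FGF2, BMP cultures (d-qNSCs, the dormant quiescent state) received BMP4, and BMP/FGF cultures (p-qNSCs, the primed quiescent state) received BMP4 and FGF2, each factor at 10 ng/ml, with the BMP4 treatments lasting 3 days. Each of the 3 conditions held 2 libraries of the ANS4 line (MF1 strain) and 2 of the BL6 line (C57BL/6 strain), 12 in all, with 18069052 to 19451818 estimated counts each. Since each strain is represented by 1 culture line, line and strain cannot be told apart. The paper describes the RNA-seq replicates as biological, 2 in number. As nothing says how the replicate cultures of a line were kept separate, p-values measure the spread between these libraries.

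The cultures carried the NSC markers fixed for them. All 8 (Sox2, Nes, Sox9, Fabp7, Vim, Slc1a3, Egfr and Prom1) were tested, and their summed level was 7564 to 8194 CPM (counts scaled to the size of each library) in the EGF/FGF libraries, 9278 to 10583 CPM under BMP and 11258 to 11859 CPM under BMP/FGF. In BMP against EGF/FGF 5 of the 8 were called higher and 3 lower (FDR under 0.05), against 40.8% and 38.8% of all genes tested. The split was again 5 and 3 in BMP/FGF, against 40.9% and 38.0%. From EGF/FGF to BMP the mean level of Vim went from 2693 to 4687 CPM and that of Slc1a3 from 1182 to 3058 CPM. Over the same step Fabp7 went from 2410 to 476 CPM and Egfr from 353 to 191 CPM. Nes, an intermediate filament gene of proliferating progenitors, fell in d-qNSCs (log2 fold change -2.17, FDR = 3.49e-14), whereas Sox9, a transcription factor gene of glia and NSCs, rose (2.03, FDR = 1.15e-14).

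The 3 metallothioneins lie side by side. On the GRCm38 build (GENCODE vM21), Mt3 (ENSMUSG00000031760) occupies chr8:94152607-94154146, Mt2 (ENSMUSG00000031762) chr8:94172664-94173568 and Mt1 (ENSMUSG00000031765) chr8:94179082-94180327, all on the plus strand with 3 exons each in their first listed transcript. Between Mt3 and Mt2 lie 18517 bases and between Mt2 and Mt1 5513 bases, and the stretch from Mt3 to Mt1 spans 27721 bases. Mt4, the fourth gene of the cluster, lies at chr8:94137197-94139031 and is not analysed here. Mtf1 (ENSMUSG00000028890) is on another chromosome, at chr4:124802104-124849800 on the plus strand, with 11 exons.

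The sequence before the RefSeq start of each metallothionein is shown because these genes rose in both quiescent states and Mtf1 is known to act through metal response elements near such starts. The 7-base cores TGCACNC and TGCGCNC, no 7 bases of which can match both, were searched on both strands of the RefSeq promoter windows (GRCm38.p6, 250 bases before to 50 after the start, plus strand). The letters below run 5′ to 3′ up to the first base annotated as exon by GENCODE or RefSeq, and capitals mark matches to either core, of which the stretch of Mt3 holds none.
Mt1, chr8:94178839-94179081: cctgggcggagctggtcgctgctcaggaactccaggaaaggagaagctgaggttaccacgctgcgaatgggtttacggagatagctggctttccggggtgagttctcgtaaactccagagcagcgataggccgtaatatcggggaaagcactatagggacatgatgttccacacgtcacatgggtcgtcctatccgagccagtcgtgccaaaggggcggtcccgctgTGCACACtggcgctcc
Mt2, chr8:94172368-94172617: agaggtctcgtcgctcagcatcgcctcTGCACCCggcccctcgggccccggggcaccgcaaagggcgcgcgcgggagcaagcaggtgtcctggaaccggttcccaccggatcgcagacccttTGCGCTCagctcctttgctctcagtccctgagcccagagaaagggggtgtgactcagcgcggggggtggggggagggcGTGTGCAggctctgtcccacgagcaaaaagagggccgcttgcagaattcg
Mt3, chr8:94152357-94152606: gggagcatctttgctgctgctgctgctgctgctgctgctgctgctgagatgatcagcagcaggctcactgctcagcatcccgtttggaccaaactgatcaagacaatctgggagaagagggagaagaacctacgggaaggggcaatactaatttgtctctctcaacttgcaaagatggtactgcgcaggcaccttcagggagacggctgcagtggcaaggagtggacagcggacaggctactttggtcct
Over the whole window of 300 bases, Mt2 held 4 matches, Mt1 held 3, Mt3 held 1 and Mtf1 held 0. The matches not printed lie past the start, at base 4 for Mt2, at bases 2 and 20 for Mt1 and at base 27 for Mt3, counted from 0 at the RefSeq start. Of 32851 RefSeq windows of the same length, 25.7% held at least 1 match, 1.97% at least 3 and 0.517% at least 4. Only the windows around these RefSeq starts were searched, while the annotation holds 3 transcripts of Mt1, 2 of Mt2 and 3 of Mt3. Elements further from these starts, or near any other start, are not counted here. A match describes these letters and does not show a bound site.

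Mt1, Mt2 and Mt3 stood severalfold higher in both quiescent states than in EGF/FGF, in every library of both lines, whereas the level of Mtf1 stayed within 36.5 to 50.1 CPM. The rise was largest for Mt2, smaller for Mt1 and smallest for Mt3. In BMP against EGF/FGF all 4 members were called higher at FDR under 0.05 (edgeR quasi-likelihood test), as were 40.8% of the genes tested, and 3 of the 4 passed the log2 fold change of 1.5, as did 10.9%. In BMP/FGF against EGF/FGF 3 of the 4 were called higher against 40.9% of the genes tested, and the same 3 passed 1.5 against 10.6%. In both comparisons all 4 members had quiescent libraries above every EGF/FGF library, against 36.3% of the genes tested for BMP and 39.0% for BMP/FGF. Both comparisons use the same EGF/FGF libraries.

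**Figure D1:**
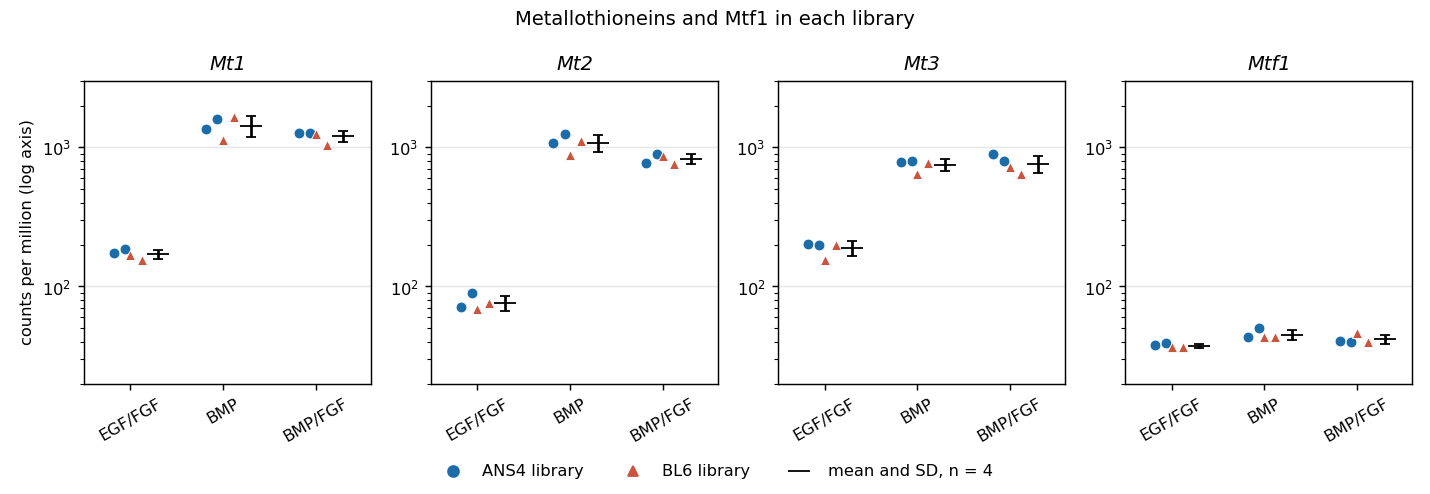
Level of Mt1, Mt2, Mt3 and Mtf1 in each of the 12 libraries, in CPM on a log axis, by condition. Circles are ANS4 and triangles BL6 libraries, and the black marks give the mean and SD of 4 libraries. All quiescent libraries of Mt1, Mt2 and Mt3 sit above all EGF/FGF libraries, and Mtf1 stays between 36.5 and 50.1 CPM.

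Mt1 in EGF/FGF was at 174 and 185 CPM in the ANS4 libraries and at 168 and 155 CPM in the BL6 libraries (171 ± 12.4, mean ± SD, n = 4). In d-qNSCs it reached 1364 and 1600 CPM in ANS4 and 1129 and 1646 CPM in BL6 (1435 ± 238), and in p-qNSCs 1270 and 1277 CPM in ANS4 and 1247 and 1037 CPM in BL6 (1208 ± 115). The lowest quiescent library thus lay far above the highest EGF/FGF library, while the d-qNSC and p-qNSC libraries overlapped. The log2 fold change was 3.07 (SE 0.10, an 8.42-fold difference, FDR = 1.67e-14) in BMP and 2.82 (SE 0.10, 7.08-fold, FDR = 4.34e-14) in BMP/FGF, each against EGF/FGF.

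Mt2, the partner of Mt1 in most tissues, was at 71.3 and 89.6 CPM in the ANS4 and at 69.0 and 75.7 CPM in the BL6 libraries of EGF/FGF (76.4 ± 9.21, n = 4). In d-qNSCs the libraries held 1077 and 1251 CPM in ANS4 and 881 and 1104 CPM in BL6 (1078 ± 152), and in p-qNSCs 772 and 898 CPM in ANS4 and 872 and 758 CPM in BL6 (825 ± 70.4). The 2 quiescent states overlapped by a narrow margin, with 1 d-qNSC library below the highest p-qNSC library. The log2 fold change against EGF/FGF was 3.82 in BMP (SE 0.10, 14.1-fold, FDR = 1.13e-15) and 3.44 in BMP/FGF (SE 0.10, 10.8-fold, FDR = 3.42e-15). By log2 fold change Mt2 ranked 239 from the top of the 13312 genes in both comparisons, and Mt1 ranked 416 and 421.

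Reads of Mt2 carry a limit that those of Mt1 and Mt3 do not. Of the 573 distinct 31-base words in the annotated Mt2 transcripts, 333 (58.1%) also occur in transcripts of another gene in either orientation, 330 of them in Gm45774, a gene on the opposite strand that is not analysed here, and 3 in Pip5k1a. Strand use in counting is not given in the sources used here, and without it reads within the shared words of Mt2 and Gm45774 cannot be told apart. None of the 1273 words of Mt1 and none of the 1065 words of Mt3 were shared with another gene, so the counts of the metallothioneins were not exchanged among themselves over 31 bases.

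Mt3 was at 203 and 198 CPM in the ANS4 and at 154 and 198 CPM in the BL6 libraries of EGF/FGF (189 ± 22.8, n = 4). It held 786 and 799 CPM in ANS4 and 639 and 778 CPM in BL6 in d-qNSCs (751 ± 74.9), and 890 and 802 CPM in ANS4 and 719 and 643 CPM in BL6 in p-qNSCs (764 ± 106). Quiescent and EGF/FGF libraries did not overlap, and those of the 2 quiescent states lay in the same range. The log2 fold change was 1.99 (SE 0.08, 3.98-fold, FDR = 3.44e-13) in BMP and 2.01 (SE 0.08, 4.04-fold, FDR = 2.98e-13) in BMP/FGF, at ranks 979 and 856 from the top.

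The exact permutation test of 4 against 4 libraries, two-sided on log2 of CPM with 0.1 added, gave p = 0.0286 for each metallothionein against EGF/FGF in both quiescent states, the smallest value that this design allows. Under the 22 alternative settings the FDR of these 6 differences stayed at 6.12e-09 or lower. Because these are bulk samples, more cells with metallothionein RNA and more such RNA per cell cannot be told apart.

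Mtf1, the regulator, varied little. It was at 37.7 and 39.0 CPM in the ANS4 and at 36.5 and 36.6 CPM in the BL6 libraries of EGF/FGF (37.5 ± 1.19, n = 4). In d-qNSCs it held 43.3 and 50.1 CPM in ANS4 and 43.0 and 43.5 CPM in BL6 (45.0 ± 3.44), and in p-qNSCs 40.6 and 40.1 CPM in ANS4 and 46.2 and 39.6 CPM in BL6 (41.6 ± 3.06). All quiescent libraries lay above all EGF/FGF libraries, but the highest of these, at 39.0 CPM, came close to the lowest p-qNSC library, at 39.6 CPM. The log2 fold change of 0.26 in BMP passed the test (SE 0.07, FDR = 0.00260) and that of 0.15 in BMP/FGF did not (SE 0.07, FDR = 0.0611).

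The direction of the Mtf1 difference depended on the deposited table. On the authors' log2 values, made with the regularized logarithm (rlog), the differences from EGF/FGF were -0.18 in BMP and -0.18 in BMP/FGF (limma-trend, FDR = 0.0859 and 0.0824). An rlog computed again from the counts lay within 0.02 of the deposited one in every library for Mt1, Mt2 and Mt3, whereas for Mtf1 the deposited value differed from it by -0.22 to 0.37. For BMP against EGF/FGF the 2 rlog versions of Mtf1 differed by -0.42, and only 0.3% of tested genes differed by more. The cause was not tested, and the rise of Mtf1 is reported here for the counts alone. Of the 8898 words of 31 bases in its transcripts, 691 (7.77%) also occur in 1110065P20Rik, a gene on the opposite strand that overlaps it and fell in d-qNSCs (log2 fold change -0.58, FDR = 7.48e-06).

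**Figure D2:**
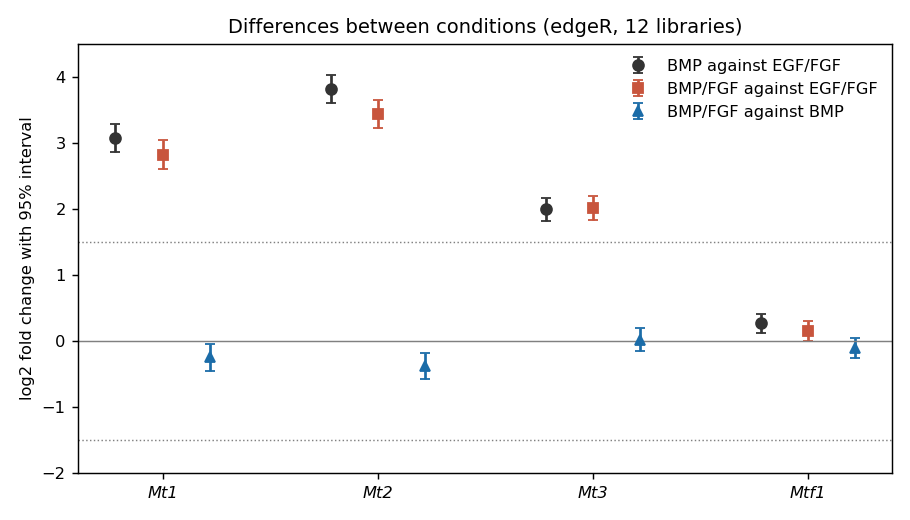
Log2 fold change of each member with its 95% interval, from one edgeR fit to 12 libraries. Circles compare BMP and squares BMP/FGF with EGF/FGF, triangles compare BMP/FGF with BMP, and dotted lines mark 1.5 and -1.5. Mt2 stands highest at 3.82 and 3.44, Mtf1 lies close to 0, and the triangles lie between -0.38 and 0.02.

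Adding FGF2 to BMP4 moved the metallothioneins little beside the difference from EGF/FGF. In BMP/FGF against BMP 2 of the 4 members were called, both of them lower, as were 21.3% of the genes tested, and none of the 4 had libraries that did not overlap, against 35.6% of the genes tested. Mt2 was 1.30-fold lower in p-qNSCs (log2 fold change -0.38, SE 0.09, FDR = 0.00284), a call kept under all 22 alternatives at FDR from 0.000212 to 0.0380, although the exact permutation test gave p = 0.0571. Mt1 was 1.19-fold lower (-0.25, SE 0.10, FDR = 0.0434), with p = 0.2 by the exact permutation test.

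The call for Mt1 was fragile, with an FDR of 0.00568 to 0.209 over the alternatives. It was kept with ANS4 BMP replicate 1, BL6 BMP replicate 1 or BL6 BMP/FGF replicate 1 left out, and lost with any of the other 9 libraries left out. Without BL6 BMP replicate 2, the library with the highest Mt1 level, the log2 fold change was -0.13. Mt3 did not pass the test (0.02, FDR = 0.869), with a 95% interval of -0.15 to 0.19 on the log2 scale, and Mtf1 did not either (-0.11, FDR = 0.223).

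Within a library the balance of the 3 metallothioneins shifted, a comparison added after the levels were seen and one that needs no scaling between libraries. The ratio of Mt1 to Mt2 counts was 2.44 and 2.07 in the ANS4 and 2.43 and 2.05 in the BL6 libraries of EGF/FGF, 1.266 and 1.279 in ANS4 and 1.282 and 1.49 in BL6 in d-qNSCs, and 1.65 and 1.42 in ANS4 and 1.43 and 1.37 in BL6 in p-qNSCs. Mt1 thus gave more counts than Mt2 in all 12 libraries, with the highest ratios in EGF/FGF. The ratio of Mt2 to Mt3 counts was 0.351 to 0.451 in EGF/FGF, 1.37 to 1.57 in d-qNSCs and 0.867 to 1.21 in p-qNSCs, without overlap between any 2 conditions. That of Mt1 to Mt3 was 0.784 to 1.09, 1.736 to 2.12 and 1.43 to 1.733 in the same order, so that the 2 quiescent states almost met.

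Over 9 comparisons of a ratio between 2 conditions, 8 had no overlap of libraries (exact permutation p = 0.0286, the smallest possible, and 0.0321 adjusted over the 9). The 9 are not separate results. The Mt1 to Mt3 ratio follows from the other ratios, and the difference between the quiescent states follows from their differences from EGF/FGF. The share of other gene pairs without overlap is not given here, so the count has no background beside it. The Mt2 to Mt3 ratio rose by 1.82 on the log2 scale in BMP and by 1.42 in BMP/FGF, and was 0.40 lower in BMP/FGF than in BMP. In the Mt1 to Mt2 ratio the difference of 0.14 between the quiescent states was within the spread of libraries (exact permutation p = 0.114). Read from the rlog values, the 9 differences kept their direction.

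**Figure D3:**
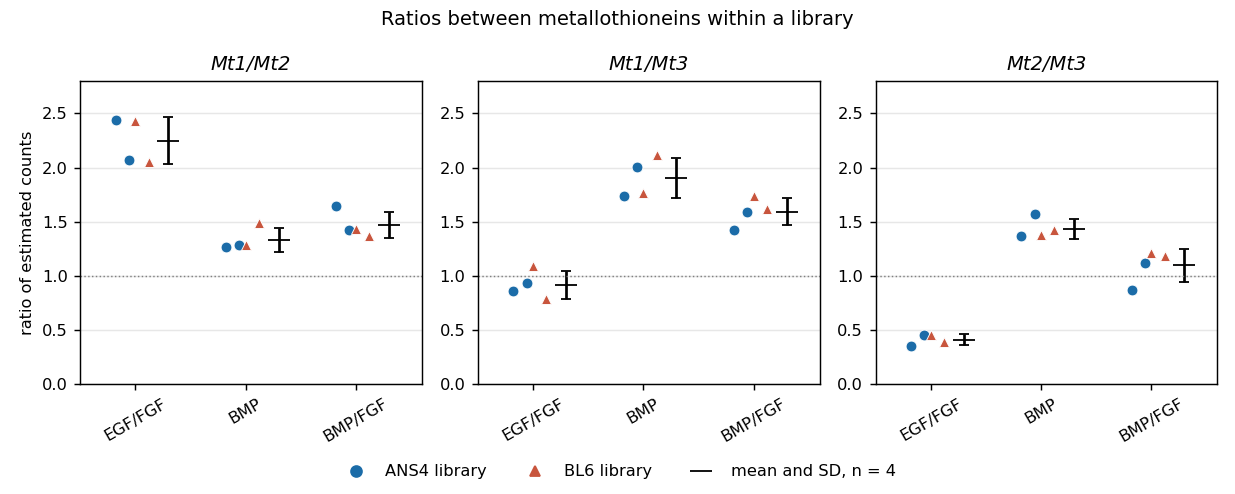
Ratio of estimated counts of Mt1 to Mt2, Mt1 to Mt3 and Mt2 to Mt3 within each library, by condition, on a linear axis from 0. Circles are ANS4 and triangles BL6 libraries, black marks give the mean and SD of 4 libraries, and the dotted line marks equal counts. Mt2 gave fewer counts than Mt3 in every EGF/FGF library and more in every d-qNSC library.

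Levels of different genes were compared per kilobase of transcript. With the longest annotated transcript of each gene, Mt3 stood highest in EGF/FGF at 352 CPM per kb (rank 106 of 13308 genes with a length), above Mt1 at 157 and Mt2 at 150. In d-qNSCs Mt2 led at 2110 CPM per kb (rank 5), followed by Mt3 at 1400 (rank 12) and Mt1 at 1322 (rank 13), and in p-qNSCs Mt2 was at 1614, Mt3 at 1425 and Mt1 at 1113 (ranks 9, 13 and 23). Mtf1 lay at 4.91 to 5.90 CPM per kb. Among the 3 metallothioneins, the first place of Mt3 in EGF/FGF and of Mt2 in d-qNSCs held with the shortest annotated transcripts, while the order of Mt1 and Mt3 in the quiescent states turned and Mt1 was first in p-qNSCs (2200, 2126 and 1736 CPM per kb for Mt1, Mt2 and Mt3). Their ranks among all genes depended on the length used. With the shortest transcripts Mt3 was at rank 1082 in EGF/FGF. Mt1, Mt2 and Mt3 were then at ranks 67, 56 and 125 in d-qNSCs and 91, 97 and 124 in p-qNSCs.

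Together the 3 metallothioneins made up 0.0392 to 0.0471% of all estimated counts in EGF/FGF, 0.273 to 0.365% in d-qNSCs and 0.238 to 0.296% in p-qNSCs. The lowest d-qNSC share came from BL6 replicate 1 and the lowest p-qNSC share from BL6 replicate 2. The shares of the 2 quiescent states overlapped, and both lay above every EGF/FGF library.

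The response of the members was not called as different between the lines. In the test of the interaction of condition and line (edgeR), 0 of the 4 members passed in any of the 3 comparisons, against 9.02% of genes tested for BMP against EGF/FGF, 4.98% for BMP/FGF against EGF/FGF and 13.5% for BMP/FGF against BMP. Nor did any reach an unadjusted p under 0.05 or a call by DESeq2. The widest member interval in BMP against EGF/FGF, that of Mt1, ran from -0.32 to 0.43 on the log2 scale. Fitted on each line alone, the log2 fold change of Mt2 in BMP was 3.85 in ANS4 and 3.76 in BL6, that of Mt1 3.04 and 3.09, and that of Mt3 1.98 and 1.99.

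Across conditions the fitted levels in BL6 were below those in ANS4 for each member (for Mtf1 not without ANS4 BMP replicate 2), but 0 of 4 passed the test of the line term, which 1.8% of genes did. Mt3 was nearest, at -0.22 (SE 0.07, 1.17-fold lower, FDR = 0.0946). At an unadjusted p under 0.05 the count was 1, and DESeq2 also called 1, again Mt3 (FDR = 0.0306).

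Genes of the most similar pattern were taken by the smallest root mean square difference of mean-centred log2 CPM over the 12 libraries, taken over the 12466 genes whose mean level reached 1 CPM. They are a description and share the libraries with the members. Nearest to Mt1 were Vmac (difference 0.14), Pyroxd2 (0.16), Pygb (0.17), Ank (0.17) and Nrbp2 (0.18), against a median of 1.41 over all genes compared. Vmac, for example, stood at 5.97, 52.8 and 42.9 CPM in EGF/FGF, BMP and BMP/FGF. Nearest to Mt2 were Phyhd1 (0.16), C1ra (0.20), Dnajb13 (0.21), Armc3 (0.21) and Fcgrt (0.21). Phyhd1 stood at 9.79, 142 and 99.6 CPM.

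Nearest to Mt3 were Tspan7 (0.13), Slc22a17 (0.14), Ccpg1os (0.14), Fbxo44 (0.15) and Acad11 (0.15), with Tspan7 at 161, 647 and 641 CPM, and nearest to Mtf1 were Ptprm, Chtop, Ankfy1, Tfip11 and Cab39 (0.06 to 0.07). The metallothioneins were not each other's nearest genes. Mt2 ranked 132 in likeness to Mt1 and Mt1 ranked 68 in likeness to Mt2, while Mt3 ranked 344 and 565. In likeness to Mt3, Mt1 ranked 1106 and Mt2 ranked 3809 of the 12466 genes. On the rlog values 4 of the 5 genes nearest to Mt3 were again among its nearest 5, as were 2 of those of Mt1 and none of those of Mt2 or Mtf1.

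The neighbours of the cluster included genes called higher and genes called lower. Of 9 tested genes near it, 5 were higher and 3 lower in BMP against EGF/FGF (median log2 fold change 0.24, against 0.02 over all genes tested, of which 40.8% were higher and 38.8% lower), and 6 were higher and 2 lower in BMP/FGF (0.34 against 0.02, with 40.9% and 38.0%). Gnao1, which codes for a G protein alpha subunit and lies 183218 bases before Mt3, rose from 9.17 ± 0.61 CPM in EGF/FGF to 121 ± 6.97 in BMP and 144 ± 6.64 in BMP/FGF (log2 fold changes 3.72 and 3.98), which was the largest difference among the 9 in both. The genes next to the cluster on either side moved less and in opposite directions. Bbs2, a component of the ciliary BBSome, ends 53678 bases before Mt3 and was higher (1.25 in both), and Nup93, a nuclear pore gene, begins 34236 bases after Mt1 and was lower (-0.92 and -0.90).

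Among the others, Ogfod1 (0.24 and 0.30), Herpud1 (1.01 and 0.55) and Fam192a (0.32 and 0.34) were higher in both quiescent states, and Nudt21 was lower (-0.60 and -0.69). Nlrc5 was called in BMP/FGF alone (0.73) and Cpne2 in BMP alone (-0.22). Between the quiescent states, 3 of the 9 were higher in p-qNSCs (Gnao1, Nlrc5 and Cpne2), against 20.1% of all genes tested. Lower there was 1 (Herpud1), against 21.3%.

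**Figure D4:**
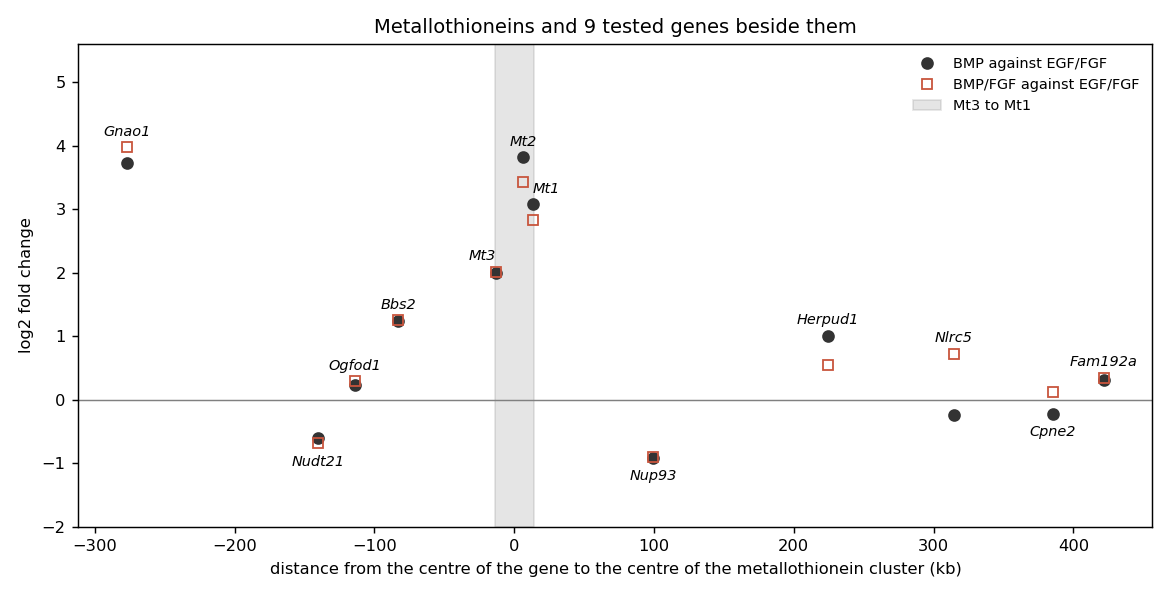
Log2 fold change of Mt3, Mt2, Mt1 and 9 tested genes beside them, against the distance in kb from the centre of the cluster to the centre of each gene. Filled circles compare BMP and open squares BMP/FGF with EGF/FGF, and the grey band runs from Mt3 to Mt1. Nup93 and Nudt21 lie below 0, and Gnao1 reaches 3.72 and 3.98.

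Transporters that move zinc across membranes were examined as a list of 24, of which 23 were in the table and 18 were tested. In BMP 12 were higher and 5 lower (median log2 fold change 0.37), and in BMP/FGF 12 were higher and 4 lower (0.39), against 0.02 over all genes tested in both, of which 40.8% and 40.9% were called higher and 38.8% and 38.0% lower. Slc39a12, a zinc importer of astrocytes, stood at 0.324 ± 0.0884 CPM in EGF/FGF, 13.5 ± 1.91 in BMP and 6.17 ± 0.628 in BMP/FGF (log2 fold changes 5.35 and 4.23). Slc30a10, a manganese and zinc exporter, had 0 to 2 counts in each EGF/FGF library against 7 to 21 with BMP4 and 6 to 17 with BMP4 and FGF2 (FDR = 7.81e-05 and 9.64e-05). Slc39a8, a zinc and manganese importer, was also scarce, with 21 to 31 counts in each EGF/FGF library, 6 to 10 with BMP4 and 12 to 23 with both factors, and fell in BMP (-1.66, FDR = 5.28e-05).

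Slc30a1, the main zinc exporter and a well-known Mtf1 target, rose from 44.3 ± 1.51 CPM in EGF/FGF to 57.0 ± 6.99 in BMP (0.36, FDR = 0.000603) and 71.3 ± 5.75 in BMP/FGF (0.69, FDR = 4.90e-07). Unlike Mt1 and Mt2, it was higher in BMP/FGF than in BMP (0.33, FDR = 0.00395), a difference of 0.08 in ANS4 alone that was not called there. Slc39a10, a zinc importer whose gene Mtf1 is reported to repress, fell from 145 ± 7.57 CPM to 92.8 ± 4.19 in BMP and 102 ± 2.45 in BMP/FGF (-0.64 and -0.50). Between the quiescent states 6 transporters were higher in p-qNSCs, against 20.1% of all genes tested, 3 were lower, against 21.3%, and 9 were not called.

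Of 9 genes reported as Mtf1 targets other than metallothioneins, 6 were higher and 3 lower in BMP (median 0.36), where 40.8% of all genes tested were higher and 38.8% lower, and 7 were higher and 2 lower in BMP/FGF (0.69), where 40.9% and 38.0% were. The median over all genes tested was 0.02 in both. The list shares Slc30a1, Slc30a10 and Slc39a10 with the transporters. Csrp1, a LIM domain gene, rose from 67.8 ± 1.48 CPM to 313 ± 27.4 in BMP and 429 ± 38.7 in BMP/FGF (2.20 and 2.66). Ndrg1, a stress-responsive gene, rose from 66.6 ± 6.73 CPM to 274 ± 60.2 and 178 ± 41.1 (2.00 and 1.38), by 0.76 and 0.80 more in BL6 than in ANS4. Selenoh, a nuclear selenoprotein gene, fell (-2.28 and -2.74). Pgf, which codes for placental growth factor, was lower in BMP (-0.35, FDR = 0.0262) and higher in BMP/FGF (1.71, FDR = 4.89e-10).

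Of 9 genes of copper handling, 3 were higher and 4 lower in BMP (median 0.13) and 4 were higher and 4 lower in BMP/FGF (0.05), shares near those of all genes tested (40.8% and 38.8%, then 40.9% and 38.0%). Slc31a2, a low-affinity copper transporter, rose from 3.37 ± 0.310 CPM to 10.2 ± 1.04 in BMP and 9.03 ± 1.49 in BMP/FGF (1.60 and 1.42). From d-qNSCs to p-qNSCs 1 of the 9 was higher (Slc31a1), against 20.1% of all genes tested, and 1 lower (Atp7a), against 21.3%. Both genes were named after their values were seen.

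Of 11 glucocorticoid-responsive genes, 6 were higher and 4 lower in BMP (median 0.23), against 40.8% and 38.8% of all genes tested, and 5 were higher and 4 lower in BMP/FGF (0.10), against 40.9% and 38.0%. Pdk4, a mitochondrial kinase gene, rose (3.47 and 3.29), as did Tsc22d3 (1.54 and 1.48), whereas Fkbp5, a chaperone of the receptor, fell (-1.72 and -1.06) with the kinase gene Sgk1 (-1.23 and -1.70). Between the quiescent states 3 were higher in p-qNSCs and 3 lower, against 20.1% and 21.3%.

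Of 10 genes of the oxidant and heavy metal response, 7 were higher and 2 lower in BMP (median 0.58), against 40.8% and 38.8% of all genes tested, and 8 were higher and 2 lower in BMP/FGF (0.56), against 40.9% and 38.0%. Hspa1b, a heat shock chaperone gene, was the 1 gene past 1.5 (1.42 in BMP and 1.84 in BMP/FGF). In BMP/FGF 10.6% of all genes tested were higher past 1.5. The difference of Hspa1b in BMP/FGF was 0.80 larger in BL6 than in ANS4. Hmox1, the heme oxygenase gene, was higher in both quiescent states. From d-qNSCs to p-qNSCs 4 were higher and 3 lower, against 20.1% and 21.3%.

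**Figure D5:**
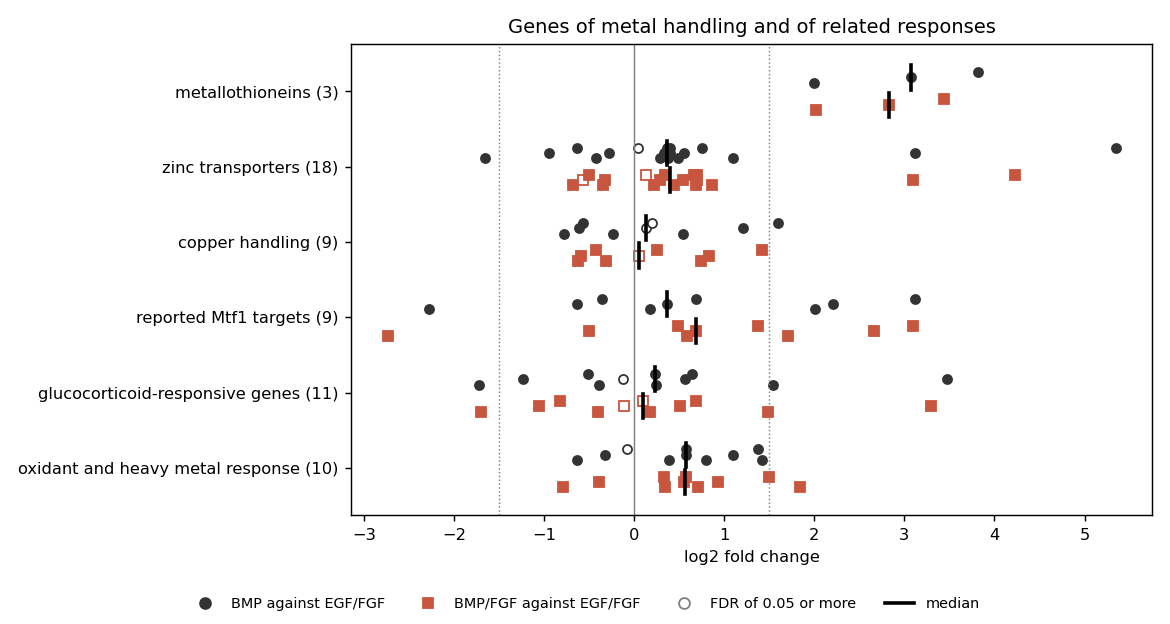
Log2 fold change of each tested gene of 5 lists beside the 3 metallothioneins, with the number of genes in brackets. Circles compare BMP and squares BMP/FGF with EGF/FGF, open symbols did not pass FDR of 0.05, black bars are medians and dotted lines mark 1.5 and -1.5. List medians lie between 0.05 and 0.69, below each metallothionein.

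Markers of astrocytes and ependymal cells were also higher in the quiescent states. Of 8 mature astrocyte markers 7 were in the table, and their summed level was 1636 to 2016 CPM in the EGF/FGF libraries, 4825 to 6329 CPM in d-qNSCs and 8100 to 8290 CPM in p-qNSCs. In BMP 6 of the 7 were higher (not Aldh1l1, at 0.05, FDR = 0.652), against 40.8% of all genes tested. In BMP/FGF all 7 were higher, against 40.9%. Between the quiescent states 5 of the 7 were higher in p-qNSCs and 0 lower, against 20.1% and 21.3% of all genes tested. Gfap, the astrocyte filament gene that adult NSCs also express, stood at 121 ± 28.7, 980 ± 96.5 and 1927 ± 53.3 CPM in the 3 conditions. Gja1, of the same list, stood at 227 ± 15.6, 990 ± 240 and 831 ± 25.6 CPM. The 3 ependymal markers measured summed to 62.9 to 78.0 CPM, 191 to 232 CPM and 197 to 210 CPM in the same order of conditions.

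Mbp, Mog and Mag, markers of oligodendrocytes, summed to 0.413 to 0.776, 3.59 to 6.07 and 2.96 to 3.91 CPM in the same order. Neuronal markers summed to 2.19 to 2.84, 7.62 to 15.5 and 4.37 to 5.44 CPM. Microglial markers, 5 of 8 of them in the table, summed to 9.56 to 14.7, 5.31 to 6.18 and 7.15 to 9.38 CPM, with Csf1r at 0 in every BMP library. Endothelial markers (2 of 4 in the table) summed to 1.41 to 4.26 CPM over all libraries, and pericyte and fibroblast markers (3 of 4, Lum at 0 in every BMP library) to 1.92 to 2.98 CPM. The part of these cells in the metallothionein levels was not tested.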

How the data were processed

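The authors trimmed reads of low input BGISEQ-500RS libraries with Trim Galore 0.5.0, quantified them with kallisto 0.44.0 against mm10 and summed them to genes with tximport, and the estimated counts they deposited are whole numbers. The authors also gave log2 values from DESeq2's rlog (version 1.27.32 in the submitters' processing notes). Counts were filtered with filterByExpr (13312 genes kept, 4053 not), scaled by TMM and fitted with edgeR 4.0.16 (glmQLFit, glmQLFTest, two-sided) on 12 libraries with condition and line as terms. Benjamini-Hochberg adjustment ran over all tested genes, and calls used FDR under 0.05. Line differences were tested as an interaction. Alternatives were DESeq2 1.42.0, limma 3.58.1 on rlog values, other scalings, no filter, no line term, a replicate block, fewer libraries and each library left out. Log2 CPM used a prior count of 2. Totals of 18069052 to 19451818 counts left at least 701 counts in every library for each member.

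Members, gene lists and markers were chosen with earlier results of these data known. Named genes are the members, the 5 nearest in pattern to each, list members with an absolute log2 fold change above 1.5 in any comparison (at most 6 per list), Slc30a1, Slc39a10 and the 5 nearest tested genes on each side of the cluster, except that 1 of these and 1 cell type marker are not reported here. Gfap, Nes, Sox9 and other markers are named as such, and Hmox1 was chosen after its values were seen. Protein sequences are not used here.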

Additional observations from a re-analysis of the deposited data

Results flagged for a closer look

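In 5 of the 12 sets of 4 libraries, 1 library stood apart from the other 3 by Dixon's test on CPM, which chance does in about 1 in 20 such sets. Mt1 in p-qNSCs was lowest in BL6 replicate 2, at 1037 CPM. Mt3 was lowest in BL6 replicate 1 both in EGF/FGF (154 CPM) and in BMP (639 CPM). Mtf1 was highest in ANS4 replicate 2 of BMP (50.1 CPM) and in BL6 replicate 1 of BMP/FGF (46.2 CPM). Of the 5, 4 are BL6 libraries, and no cause was tested.

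Outside the members, 6 differences between conditions that were unequal in the lines by the edgeR test of the interaction are listed (BL6 minus ANS4, log2 scale). They are not a count over every gene named. For BMP against EGF/FGF, where 9.02% of all genes tested were called, the listed gene was Ndrg1 (0.76, FDR = 0.000164). For BMP/FGF against EGF/FGF, with 4.98% called, the listed genes were Ndrg1 (0.80, FDR = 0.000182), Pgf (0.65, FDR = 0.0439) and Hspa1b (0.80, FDR = 0.0387). For BMP/FGF against BMP, with 13.5% called, they were Slc30a1 (0.49, FDR = 0.00380) and Sgk1 (-0.36, FDR = 0.0256). No line difference of Mt1, Mt2, Mt3 or Mtf1 was called.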

How the results depend on the processing

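The differences of Mt1, Mt2 and Mt3 from EGF/FGF kept direction and call under all 22 alternatives. With single libraries left out, the log2 fold change in BMP ran from 2.96 to 3.16 for Mt1, 3.76 to 3.89 for Mt2 and 1.93 to 2.07 for Mt3. For BMP/FGF against BMP, Mt1 was no longer called with limma-trend on rlog values (-0.24), without the filter (-0.25), without the line term (-0.25), in the 8 libraries compared (-0.25) or in BL6 alone (-0.28), and ran from -0.34 to -0.13 with single libraries left out. The replicate block also ended that call (-0.24, FDR = 0.0722) and changed no other call of a member, although the numbers were not taken to pair the libraries: deviations of same-numbered libraries of a line in 2 conditions had correlations of -0.0711 to 0.0529 over all genes and of -0.179 to 0.306 over 9967 genes above a log2 CPM of 3, the highest for ANS4 in BMP and EGF/FGF. The block gave 10399, 10325 and 5025 called genes for BMP against EGF/FGF, BMP/FGF against EGF/FGF and BMP/FGF against BMP, against 10596, 10506 and 5513.

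Mt3 in BMP/FGF against BMP turned to -0.024 with library size only and to -0.054 in BL6 alone, and ran from -0.033 to 0.086 with single libraries left out. Mtf1 turned to -0.18 in both comparisons with EGF/FGF on rlog values. In BMP/FGF against EGF/FGF it was called in the 8 libraries compared (0.14, FDR = 0.0473) and ran from 0.075 to 0.18 with single libraries left out, with a call without ANS4 BMP replicate 2 (0.15, FDR = 0.0492).

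For the line term, DESeq2 called Mt3 (-0.22) and 525 genes, and no filter left 109, against 239. With single libraries left out the count ran from 52 to 301, Mt3 from -0.27 to -0.18 (called without BL6 BMP replicate 2) and Mtf1 from -0.079 to 0.0066. Genes called for a line difference numbered 1201, 663 and 1801 for BMP against EGF/FGF, BMP/FGF against EGF/FGF and BMP/FGF against BMP. The first 2 became 615 and 1685 in the 8 libraries compared, and the 3 ran from 612 to 2437, 184 to 1370 and 897 to 2833 with single libraries left out, where the lone library of a group is assumed to vary like the others. For BMP against EGF/FGF the members' line differences then ran from -0.24 to 0.30 (Mt1), -0.25 to 0.076 (Mt2), -0.15 to 0.22 (Mt3) and -0.15 to 0.070 (Mtf1). For BMP/FGF against EGF/FGF they ran from -0.14 to 0.12 (Mt1), -0.058 to 0.27 (Mt2) and -0.30 to 0.065 (Mt3), and for BMP/FGF against BMP from -0.31 to 0.23 (Mt1). That of Mt1 for BMP/FGF against EGF/FGF was 0.0032 with DESeq2 and 0.00019 without the filter. None was called. Causes were not tested. Of the 9 ratio differences, alternatives chosen after seeing the data (rlog values, each line alone, single libraries left out) reversed none.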
